A study of Homo sapiens with 14 samples.

Results

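The 42 genes described here are interferon-stimulated genes, chosen by name and matched to the gene symbols of the count tables, where all 42 were found among 26732 genes listed for both cell lines. They were followed in A549 and H1792, both established human lung adenocarcinoma lines. AMG900 is a small-molecule inhibitor of the aurora kinases, which drive chromosome segregation and cytokinesis, and the study compared gene expression with and without it. Cells were seeded in dishes, treated on the next day with DMSO, the solvent, or with 0.1 µM AMG900, and collected after 48 h for RNA sequencing. The A549 libraries comprised 4 with DMSO and 4 with AMG900, from cells kept in DMEM, and the H1792 libraries 3 with DMSO and 3 with AMG900, from cells kept in RPMI medium, so that line and medium cannot be told apart. The labels name no added interferon and no altered genotype in any group. The protocol names 3 dishes per treatment while A549 has 4 libraries per group, and nothing states that replicates came from separate passages, so the spread between them may be partly technical. All 42 genes are protein coding in the GENCODE annotation of GRCh37, from which the gene positions below are taken, and *DDX58* carries its current name *RIGI* there.

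Interferons are secreted proteins that cells release on sensing viral or misplaced nucleic acid. Type I and type III interferons bind their receptors, activate the kinases JAK1 and TYK2, and lead to the phosphorylation of STAT2, which with IRF9 is part of ISGF3, a complex that binds the interferon-stimulated response element (ISRE). Type II interferon instead acts through the gamma-activated site (GAS). The genes switched on this way include sensors of viral RNA, transcription factors that amplify the response, and effectors that block the entry, translation or replication of viruses.

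The promoter letters of these elements are shown first, since the members are defined by their response to factors that read them. RefSeq promoters of GRCh38.p14, running from 250 bases before to 50 bases after the transcription start, were held for 35 of the 42 members, and those of *IFIT2*, *DHX58*, *MX2*, *OAS2*, *OASL*, *IRF7* and *USP18* were not. The ISRE-type letters, GAAA followed after any 2 bases by GAAA, were present on either strand in 22 of the 35 members (62.9%), against 1195 of all 27305 genes with a promoter (4.38%). The GAS-type letters, TTC followed after any 3 bases by GAA, which read the same on both strands, were present in 10 of the 35 (28.6%), against 9.38% of all genes. Of the 16 members whose values in every library are given, 14 had a promoter, of which 10 held the ISRE-type and 5 the GAS-type letters, and the sequences shown are those of 10 of them that were called in either line. All lie upstream of the start, run 5′ to 3′ in the direction of transcription, and carry the matched letters (or their reverse complement) in capitals.
ISG15: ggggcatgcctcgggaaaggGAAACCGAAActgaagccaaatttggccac
IFI6: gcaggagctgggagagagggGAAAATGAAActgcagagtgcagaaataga
IFI27: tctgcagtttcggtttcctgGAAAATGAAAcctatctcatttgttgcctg
LGALS3BP: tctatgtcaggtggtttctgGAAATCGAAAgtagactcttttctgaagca
OAS3: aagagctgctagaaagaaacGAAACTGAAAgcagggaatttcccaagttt
IFIT5: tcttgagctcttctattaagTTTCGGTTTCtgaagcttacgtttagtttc
HERC5: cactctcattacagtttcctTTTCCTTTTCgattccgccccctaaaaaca
SAMD9: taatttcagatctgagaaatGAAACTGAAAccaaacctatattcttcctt
IRF9: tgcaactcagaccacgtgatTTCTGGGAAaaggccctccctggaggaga
OAS1: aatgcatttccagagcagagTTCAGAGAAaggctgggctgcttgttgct
The stretches lie at chr1:1013370-1013419 (plus strand) for *ISG15*, chr1:27672278-27672327 (minus) for *IFI6*, chr14:94110621-94110670 (plus) for *IFI27*, chr17:78979952-78980001 (minus) for *LGALS3BP*, chr12:112938311-112938360 (plus) for *OAS3*, chr10:89414503-89414552 (plus) for *IFIT5*, chr4:88456980-88457029 (plus) for *HERC5*, chr7:93118086-93118135 (minus) for *SAMD9*, chr14:24161182-24161230 (plus) for *IRF9* and chr12:112906774-112906822 (plus) for *OAS1*. In *ISG15* and *HERC5* the shown match shares its first 4 letters with the end of another ISRE-type match, and in *IFI27* it overlaps a GAS-type match. The first 4 sequences belong to genes called higher with AMG900 in A549, and the *OAS3*, *IFIT5*, *HERC5* and *SAMD9* sequences to genes called lower in 1 of the lines. The ISRE-type letters were thus present on both sides: they were found in 7 of 13 members called higher, 10 of 14 not called and the 1 called lower in A549, and in 5 of 7, 12 of 18 and 3 of 5 in H1792. A match is a description of the letters and not evidence of binding.

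Total counts ranged from 4248944 to 18940099 in A549 and from 42760874 to 79902934 in H1792, with A549 DMSO replicate 1 the smallest of the 14 libraries. Replicates varied by a biological coefficient of variation of 12.8% (A549) and 9.6% (H1792). The epithelial keratins *KRT8* and *KRT18* were abundant in both lines, at mean levels of 3056 and 1555 CPM (read counts scaled to a common library size) in A549 with DMSO and 467 and 268 CPM in H1792, whereas the epithelial markers *EPCAM* in A549 (0.287 CPM) and *CDH1* in H1792 (0.697 CPM) were near 0. The summed level of 8 leukocyte markers was 1.89 to 6.39 CPM with DMSO and 9.89 to 11.8 CPM with AMG900 in A549, and 1.53 to 1.89 CPM and 2.66 to 3.09 CPM in H1792. *CD14* led this sum (mean 4.08 and 10.3 CPM in A549), while *CLEC4C* and *IL3RA* had 0 counts in every library and *PTPRC* and *CD3E* at most 4 counts in any. The 3 fibroblast markers *DCN*, *PDGFRB* and *LUM* summed to 44.2 to 48.7 CPM in H1792 with DMSO and 36.7 to 38.7 CPM with AMG900, and to at most 0.851 CPM in A549. *DCN* and *LUM* were lower with AMG900 in H1792 while *PDGFRB* was at a mean of 11.1 CPM with DMSO and 13.5 CPM with AMG900. The 3 endothelial markers summed to 4.01 to 16.5 CPM and 8.29 to 9.40 CPM in H1792, with *PECAM1* at 4.56 and 7.71 CPM and *VWF* at 3.83 and 0.577 CPM (means), and to 0.216 to 5.59 CPM and 0.332 to 1.25 CPM in A549. The *VWF* mean of H1792 with DMSO rested mostly on 1 library, which held 517 counts, so it does not show a fall with AMG900. The 5 epithelial markers summed to 4230 to 5330 CPM and 6090 to 7060 CPM in A549, and to 674 to 840 CPM and 838 to 852 CPM in H1792. The marker levels moved with treatment except where these ranges overlap, and their part in the results below was not tested. In these bulk libraries, fewer cells of a type and less RNA per cell cannot be told apart.

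In A549, 15 members were called higher with AMG900 and 1, *OAS3*, lower. Of the 42, 32 passed the filter on low counts and were tested, and a gene was called at a false discovery rate of 0.01 (quasi-likelihood test of edgeR, p adjusted after Benjamini and Hochberg over all 13174 genes tested), while 17.2% of all genes tested were called higher and 17.8% lower. The median log2 fold change of the 32 was 0.68, against -0.01 over all genes. The members called higher were *IRF1*, *IRF7*, *IRF9*, *STAT2*, *IFIT3*, *OAS1*, *OASL*, *ISG15*, *UBE2L6*, *MX1*, *TRIM21*, *IFI6*, *IFI27*, *IFI35* and *LGALS3BP*. All AMG900 libraries lay above all DMSO libraries for 20 of the 32 members and below for 1, where 26% and 18% of all genes did so. Without the smallest library, DMSO replicate 1, 18 members were called higher, and the share of all genes called higher was 21.4%.

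In H1792 the list split. Of 37 members tested, 10 were called higher and 5 lower, while 16.2% of all 15017 genes tested were called higher and 18.8% lower. The median log2 fold change was 0.10, against 0.01 over all genes. The 10 higher were *IRF1*, *IRF7*, *IRF9*, *OASL*, *MX1*, *MX2*, *ISG20*, *TRIM21*, *IFI6* and *LGALS3BP*, and the 5 lower were *STAT2*, *IFIT5*, *HERC5*, *SAMD9* and *SAMD9L*. AMG900 libraries lay above all DMSO libraries for 15 of the 37 and below for 9, where 30.3% and 29.3% of all genes did so. The count of 5 lower changed with the libraries used. It was 2 without DMSO replicate 3 (13.6% of all genes) or AMG900 replicate 3 (14.2%). It was 3 without AMG900 replicate 1 (12.2%) or AMG900 replicate 2 (13%), so fewer genes of any kind were called lower in these fits. Without DMSO replicate 1 it was 6 (24.1%), and without DMSO replicate 2 it was 4 (18.8%).

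Across both lines, 8 members were called higher in each: *IRF1*, *IRF7*, *IRF9*, *OASL*, *MX1*, *TRIM21*, *IFI6* and *LGALS3BP*. After the GC correction, *MX1* and *LGALS3BP* were no longer called in H1792. *STAT2* was the 1 member called in opposite directions. A further 6 were called higher in A549 and not called in H1792, and 4 were called lower in H1792 and not called in A549. Neither line had enough counts to test *XAF1*, *CMPK2*, *RSAD2*, *CXCL10* and *CXCL11*. The difference between lines itself was tested as a line-by-treatment interaction term over 36 members: 9 had a lower change in H1792 than in A549 and 1 a higher one, against 9.17% and 5.37% of all 14769 genes tested. With the size factors of DESeq2, which scale the libraries differently, these were 8 and 1 members and 6.99% and 6.85% of all genes.

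**Figure D1:**
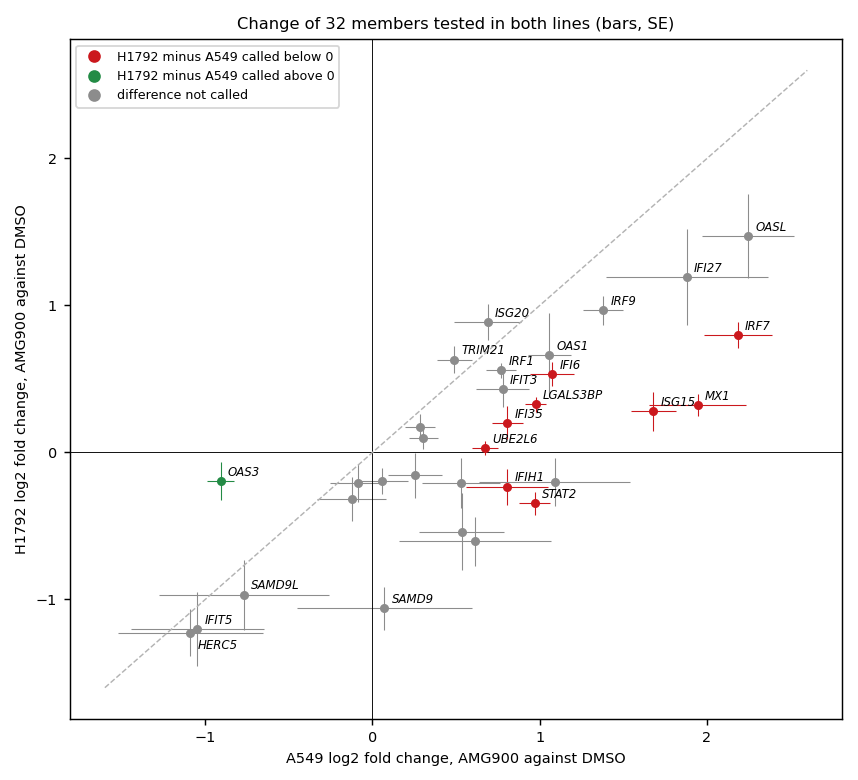
Log2 fold change with AMG900 against DMSO in A549 (horizontal axis) and in H1792 (vertical axis) for the 32 members tested in both lines. Bars are standard errors, the dashed line marks equal change, and colour marks the 10 members whose change differed between lines: 9 lie below the dashed line and *OAS3* above it.

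Of the transcription factors that carry the interferon signal, *IRF1*, *IRF7* and *IRF9* were called higher in both lines and *STAT2* in opposite directions. *IRF7*, which drives type I interferon genes in infected cells and lies at chr11:612553-615983 of GRCh37 on the minus strand, was at 4.65, 2.75, 3.10 and 3.00 CPM in A549 with DMSO and at 12.3, 13.1, 17.5 and 18.5 CPM with AMG900. In H1792 it was at 10.8, 9.38 and 9.32 CPM with DMSO and 17.3, 17.5 and 16.7 CPM with AMG900. The groups did not overlap in either line, and the AMG900 libraries of both lines reached like levels. The log2 fold change was 2.19 ± 0.20 (SE) in A549 (4.55-fold, adjusted p = 7.29e-07, edgeR) and 0.80 ± 0.09 in H1792 (1.74-fold, adjusted p = 5.29e-05), and the difference of -1.48 ± 0.23 was called (adjusted p = 9.11e-05). After a correction for GC content, described further on, the H1792 value was 0.45 (adjusted p = 6.93e-04).

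*IRF9*, the DNA-binding subunit of ISGF3, was at 12.2, 12.8, 15.9 and 16.8 CPM in A549 with DMSO and at 38.4, 45.3, 38.5 and 39.0 CPM with AMG900. In H1792 it rose from 6.21, 7.11 and 7.35 CPM to 14, 13.3 and 13.1 CPM. Its AMG900 libraries were thus well above all DMSO libraries in both lines. The log2 fold changes were 1.38 ± 0.12 in A549 (adjusted p = 4.06e-07) and 0.97 ± 0.10 in H1792 (adjusted p = 3.07e-05), and their difference was not called (-0.48 ± 0.17, adjusted p = 0.0401). *IRF1*, a factor induced mainly by type II interferon, rose in both lines with similar folds, from 41.7 to 52.6 CPM up to 80.7 to 92.6 CPM in A549 (1.70-fold, adjusted p = 7.10e-06) and from 79.5 to 82.8 CPM up to 118 to 123 CPM in H1792 (1.48-fold, adjusted p = 1.71e-05).

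*STAT2*, the activating subunit of ISGF3, moved in opposite directions. In A549 it was at 25.7, 26.8, 26.8 and 30.7 CPM with DMSO and 60.4, 60.0, 54.1 and 54.2 CPM with AMG900. In H1792 it was at 24.8, 27.2 and 24.9 CPM with DMSO and 18.7, 21.2 and 20.7 CPM with AMG900. With DMSO the ranges of the lines overlapped (log2 difference H1792 minus A549 of -0.11 ± 0.09, adjusted p = 0.269), and with AMG900 they lay far apart. The log2 fold change was 0.97 ± 0.09 in A549 (adjusted p = 1.25e-06) and -0.35 ± 0.08 in H1792 (adjusted p = 0.00422), a difference of -1.39 ± 0.13 (adjusted p = 9.64e-08). The H1792 call was lost in 4 of the 6 fits that left out 1 library, those without DMSO replicate 3 or any 1 of the AMG900 replicates (adjusted p 0.0120 to 0.0277), whereas the A549 call and the difference held in every such fit. *SP100*, a nuclear body protein, was at 34.8 to 41.9 CPM and 47.6 to 54.0 CPM in A549 and was not called (0.29 ± 0.09, adjusted p = 0.0180), but was after the GC correction (0.62, adjusted p = 2.98e-05). It was also called by DESeq2 (adjusted p = 0.006) and with at least 10 counts required in every library (0.00879).

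**Figure D2:**
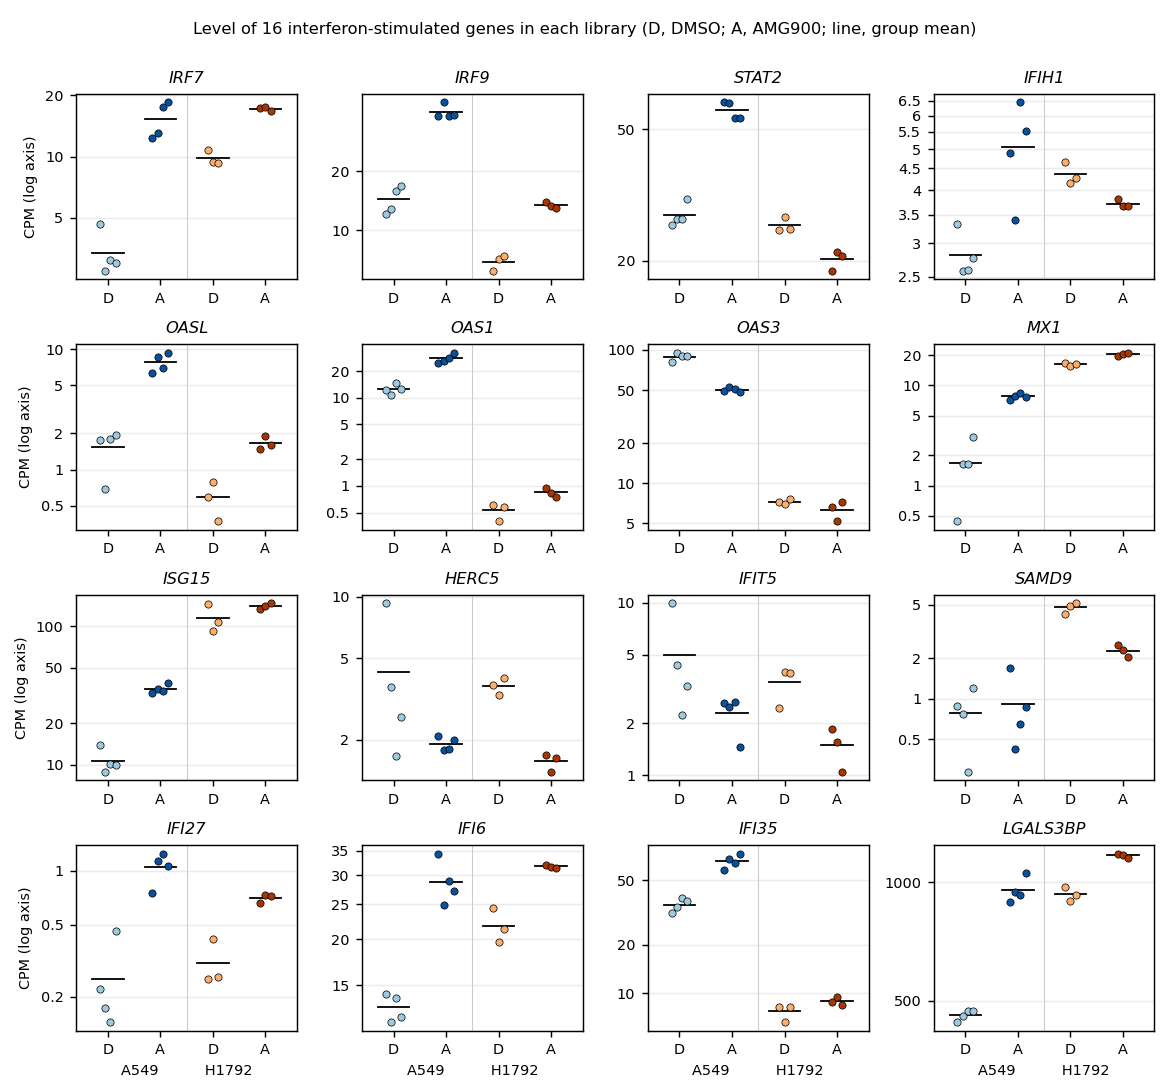
Level of the 16 members with values given in every library, in CPM on log axes, for A549 (blue) and H1792 (orange) with DMSO (D) and AMG900 (A). Each point is 1 library and each line a group mean. *STAT2* goes up in A549 and down in H1792 from overlapping DMSO levels, *ISG15* and *MX1* climb more in A549 from a lower start, and 1 A549 DMSO library stands above all others in *HERC5* and *IFIT5*.

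The helicase-type sensors of cytosolic RNA, *IFIH1*, *DDX58* and *DHX58*, were not called in either line at the threshold of 0.01 in edgeR, and some of these calls depended on the fit. *IFIH1*, which encodes the long double-stranded RNA sensor MDA5, was at 3.32, 2.58, 2.59 and 2.76 CPM in A549 with DMSO and 4.90, 3.41, 6.45 and 5.51 CPM with AMG900, and at 4.66, 4.15 and 4.27 CPM with DMSO and 3.81, 3.67 and 3.68 CPM with AMG900 in H1792. The groups did not overlap in either line but lay in opposite order. Neither change was called alone (0.80 ± 0.24, adjusted p = 0.0133 in A549; -0.23 ± 0.12, adjusted p = 0.128 in H1792), while their difference was (-1.12 ± 0.27, adjusted p = 0.00498), a call lost in 10 of 14 fits that left out 1 library (adjusted p 0.0102 to 0.0149). The A549 change was called by DESeq2 (adjusted p = 0.00730), with at least 10 counts required in every library (0.00923), after the GC correction (1.09, adjusted p = 0.00219), and without DMSO replicate 1 (0.00554) or AMG900 replicate 2 (0.00508).

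*DDX58*, which encodes RIG-I, the sensor of short RNA with a 5′ triphosphate, was at 5.62 to 6.8 CPM with DMSO and 7.30 to 8.19 CPM with AMG900 in A549 (0.25 ± 0.16, adjusted p = 0.207, and 0.69 and called after the GC correction, adjusted p = 0.00167) and at 3.81 to 4.19 CPM and 2.97 to 4.19 CPM in H1792 (-0.16 ± 0.15, adjusted p = 0.415). *DHX58*, which encodes LGP2, a regulator of both sensors, had 1 to 9 counts per A549 library and was not tested there. It was at 1.24 to 1.83 CPM with DMSO and 2.09 to 2.70 CPM with AMG900 in H1792 (0.71 ± 0.21, adjusted p = 0.0143), a change called without DMSO replicate 1 (adjusted p = 0.00247). DESeq2 called this change with all libraries (adjusted p = 0.00783).

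The OAS family senses double-stranded RNA, and its members went different ways although *OAS1* and *OAS3* are neighbours on the plus strand of chromosome 12 (chr12:113343661-113371024 and chr12:113375856-113414265 of GRCh37). *OAS1* was at 12.2, 10.8, 14.8 and 12.6 CPM in A549 with DMSO and 24.6, 25.8, 28.4 and 32.3 CPM with AMG900. *OAS3* was at 81.6, 95.4, 89.9 and 89.8 CPM with DMSO and 48.9, 52.6, 51.0 and 48.7 CPM with AMG900. The groups of each gene were far apart, in opposite order. The log2 fold changes were 1.06 ± 0.13 for *OAS1* (2.08-fold, adjusted p = 1.19e-05) and -0.91 ± 0.08 for *OAS3* (adjusted p = 3.93e-07), and *OAS3* was the 1 member called lower in A549, where *HERC5* and *IFIT5*, described below, had larger negative values and were called only at a threshold of 0.05. The *HERC5* and *IFIT5* values shrank to as little as -0.53 and -0.58 in fits that left out 1 library.

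In H1792, both genes were at far lower levels than in A549, with 19 to 72 counts per library for *OAS1* and 253 to 500 for *OAS3*. *OAS1* was at 0.612, 0.399 and 0.584 CPM with DMSO and 0.949, 0.840 and 0.747 CPM with AMG900, and *OAS3* at 7.24, 6.92 and 7.59 CPM with DMSO and 6.59, 5.18 and 7.22 CPM with AMG900. Neither was called (0.66 ± 0.29, adjusted p = 0.0766, and -0.20 ± 0.13, adjusted p = 0.230). The difference of the *OAS3* change between lines was called (0.64 ± 0.14, adjusted p = 0.00213) except without H1792 AMG900 replicate 3 (adjusted p = 0.0120).

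*OASL*, an OAS-like protein without synthetase activity that enhances RIG-I signalling, had the largest fold change of the members tested in each line. It was at 1.77, 0.688, 1.80 and 1.96 CPM in A549 with DMSO and 6.31, 8.59, 7.05 and 9.36 CPM with AMG900, and at 0.596, 0.797 and 0.374 CPM with DMSO and 1.48, 1.89 and 1.60 CPM with AMG900 in H1792. No AMG900 library reached down to a DMSO library of its line. The log2 fold changes were 2.25 ± 0.27 (4.75-fold, adjusted p = 1.19e-05) and 1.47 ± 0.29 (2.77-fold, adjusted p = 0.00172), with no called difference between them (adjusted p = 0.147). *OAS2* had at most 13 counts in an A549 library and 30 in an H1792 library, was tested only in H1792 and was not called there (0.57 ± 0.50, adjusted p = 0.368).

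The ISG15 system couples the ubiquitin-like protein ISG15 to other proteins. *ISG15* itself was at 14, 8.95, 10.1 and 9.97 CPM in A549 with DMSO and 33.0, 35.0, 33.9 and 39.0 CPM with AMG900. In H1792 it was at 145, 92 and 108 CPM with DMSO and 132, 141 and 147 CPM with AMG900. The A549 groups were separate, while in H1792 DMSO replicate 1 lay inside the range of the AMG900 libraries. The log2 fold change was 1.68 ± 0.13 in A549 (3.20-fold, adjusted p = 1.59e-07) and 0.28 ± 0.13 in H1792 (adjusted p = 0.101), and the difference was called (-1.49 ± 0.19, adjusted p = 1.02e-05). Without H1792 DMSO replicate 1 the H1792 change was 0.46 and was called (adjusted p = 2.14e-05).

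*UBE2L6*, the E2 enzyme of ISG15 conjugation, rose from 63.8 to 78.6 CPM up to 117 to 129 CPM in A549 (0.67 ± 0.08, adjusted p = 8.51e-06) but stayed at 265 to 282 CPM with DMSO and 280 to 284 CPM with AMG900 in H1792 (0.03 ± 0.05, adjusted p = 0.648), a called difference (adjusted p = 3.33e-05). *HERC5*, the main E3 ligase, was at 9.31, 3.61, 1.66 and 2.59 CPM in A549 with DMSO and 2.07, 1.77, 1.79 and 1.99 CPM with AMG900, and at 3.72, 3.32 and 3.99 CPM with DMSO and 1.69, 1.39 and 1.62 CPM with AMG900 in H1792. The E2 and the E3 thus differed: *HERC5* fell in H1792, with separate groups (-1.23 ± 0.16, adjusted p = 1.50e-04), and was not called in A549 (-1.09 ± 0.43, adjusted p = 0.0495), where the log2 fold change was -0.53 without DMSO replicate 1. *HERC6* (-0.12 and -0.32 on the log2 scale) and *USP18*, the protease that removes ISG15 (0.06 and -0.20), were called in neither line; *USP18* has a near-identical copy, so reads may be divided between them.

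The IFIT proteins bind viral RNA, and their genes lie together on chromosome 10. *IFIT3* rose in A549 from 6.21 to 8.86 CPM up to 12.0 to 14.5 CPM (0.78 ± 0.16, adjusted p = 9.83e-04), and was at 4.11 to 4.66 CPM with DMSO and 5.26 to 6.27 CPM with AMG900 in H1792, separate groups whose difference missed the threshold (0.43 ± 0.12, adjusted p = 0.0126). *IFIT1* (0.53 ± 0.23 in A549 and -0.21 ± 0.17 in H1792) and *IFIT2* (0.53 ± 0.25 and -0.54 ± 0.26) were not called in either line, and both were called in A549 after the GC correction (0.89 each). *IFIT5* went the other way, at 9.97, 4.39, 2.23 and 3.28 CPM with DMSO and 2.64, 2.48, 2.66 and 1.46 CPM with AMG900 in A549, and at 2.46, 3.99 and 3.92 CPM with DMSO and 1.86, 1.56 and 1.05 CPM with AMG900 in H1792. The A549 groups overlapped and those of H1792 did not. In A549 the log2 fold change ranged from -1.32 to -0.58 in the fits that left out 1 library. It was -0.54 there after the GC correction (adjusted p = 0.265). *IFIT5* was called in H1792 (-1.20 ± 0.25, adjusted p = 0.00270), was not called in A549 (-1.05 ± 0.40, adjusted p = 0.0420), and lost the H1792 call without DMSO replicate 3, AMG900 replicate 2 or AMG900 replicate 3 (adjusted p 0.0104 to 0.0132) or after the GC correction (-0.67, adjusted p = 0.0316).

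Among the antiviral effectors, *MX1*, a dynamin-like GTPase that traps viral nucleoproteins, was at 0.443, 1.63, 1.66 and 3.05 CPM in A549 with DMSO and 7.16, 7.88, 8.46 and 7.63 CPM with AMG900. In H1792 it started high, at 16.8, 15.6 and 16.5 CPM, and was at 19.5, 20.6 and 21.1 CPM with AMG900. All AMG900 libraries were above all DMSO libraries in each line. The log2 fold change was 1.94 ± 0.29 in A549 (3.85-fold, adjusted p = 7.88e-05) and 0.32 ± 0.07 in H1792 (1.25-fold, adjusted p = 0.00447), a called difference of -1.65 ± 0.28 (adjusted p = 2.06e-04). The H1792 call of *MX1* held only without DMSO replicate 1 and was lost in the other 5 fits that left out 1 library (adjusted p 0.0123 to 0.0250) and after the GC correction (0.21, adjusted p = 0.0212).

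*MX2*, the related restriction factor of nuclear import, had 19 counts over all 8 A549 libraries and was at 5.14 to 6.74 CPM with DMSO and 7.91 to 9 CPM with AMG900 in H1792 (0.56 ± 0.12, adjusted p = 0.00343), a call lost without DMSO replicate 3, AMG900 replicate 1 or AMG900 replicate 2 (adjusted p 0.0189 to 0.0198). *ISG20*, an RNA exonuclease, was at 6.00 to 8.17 CPM and 12.1 to 13.1 CPM in H1792, where it rose (0.89 ± 0.12, adjusted p = 1.86e-04), and at 4.22 to 7.03 CPM and 7.45 to 10.9 CPM in A549, just short of a call (0.69 ± 0.20, adjusted p = 0.0108). The A549 call of *ISG20* was made without DMSO replicate 1 (adjusted p = 0.00843), DMSO replicate 4 (0.00521) or AMG900 replicate 2 (0.00947). With all libraries it was made by DESeq2 (adjusted p = 0.00421), with no filter (0.00825) and with at least 10 counts in every library (0.00809). *TRIM21*, a cytosolic antibody receptor and ubiquitin ligase, rose in both lines, from 18.6 to 22.7 CPM up to 29.5 to 33.6 CPM in A549 (1.41-fold, adjusted p = 0.00148) and from 7.92 to 8.77 CPM up to 12.3 to 14 CPM in H1792 (1.55-fold, adjusted p = 3.24e-04), the difference of log2 fold changes being 0.07 ± 0.14.

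*SAMD9*, a translation-restricting antiviral factor, and its paralog *SAMD9L* are neighbours on chromosome 7. *SAMD9* was at 0.887, 0.774, 0.288 and 1.21 CPM with DMSO and 1.69, 0.426, 0.651 and 0.863 CPM with AMG900 in A549, and at 4.28, 4.91 and 5.14 CPM with DMSO and 2.49, 2.32 and 2.04 CPM with AMG900 in H1792. It overlapped in A549, at these few counts (0.07 ± 0.52), and was called lower without overlap in H1792 (-1.06 ± 0.14, adjusted p = 1.91e-04). After the GC correction the H1792 value was -0.44 and the call was lost (adjusted p = 0.0189). *SAMD9L* fell from 1.69 to 2.41 CPM to 0.830 to 1.29 CPM in H1792 (-0.97 ± 0.24, adjusted p = 0.00631), a call lost in 4 of 6 fits that left out 1 library, those without DMSO replicate 2, DMSO replicate 3, AMG900 replicate 1 or AMG900 replicate 3 (adjusted p 0.0183 to 0.0314), and after the GC correction (-0.51, adjusted p = 0.0732). *BST2*, which encodes tetherin, was at 0.360 to 1.33 CPM and 1.03 to 1.33 CPM in A549 and was called in neither line (1.09 ± 0.45, adjusted p = 0.0586 in A549, and -0.20 ± 0.16, adjusted p = 0.331 in H1792). The A549 overlap came from DMSO replicate 1, since the other DMSO libraries were at 0.360 to 0.430 CPM. Without this library the A549 change was still not called, while the difference between lines was (-1.74, adjusted p = 0.00185, against -1.41 and 0.0207 with it).

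*LGALS3BP*, a secreted galectin-binding glycoprotein, dominated the list in abundance. Of the summed CPM of the 42 members, it supplied 47.5% to 48.0% with DMSO and 53.6% to 57.8% with AMG900 in A549. In H1792 it supplied 55.3% to 56.5% with DMSO and 57.6% to 59.1% with AMG900. It was at 441, 458, 471 and 470 CPM with DMSO and 894, 944, 931 and 1057 CPM with AMG900 in A549, and at 975, 895 and 927 CPM with DMSO and 1185, 1178 and 1153 CPM with AMG900 in H1792. Replicates were tight and the groups separate in both lines. The log2 fold changes of 0.98 ± 0.06 (adjusted p = 1.28e-08) and 0.33 ± 0.05 (adjusted p = 3.44e-04) differed between lines (adjusted p = 4.07e-06). After the GC correction they were 0.59 in A549 (adjusted p = 4.93e-07) and 0.01 in H1792, where the call was lost (adjusted p = 0.861). Without *LGALS3BP*, the other 41 members summed to 483.4 to 519.5 CPM with DMSO and 756.3 to 774.2 CPM with AMG900 in A549, and to 713.9 to 760.3 CPM and 820.6 to 847.5 CPM in H1792.

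Among the genes named for interferon induction alone, *IFI6*, a mitochondrial and endoplasmic reticulum protein, was at 14.2, 11.9, 13.8 and 12.3 CPM with DMSO and 34.4, 24.9, 28.8 and 27.1 CPM with AMG900 in A549 (1.08 ± 0.13, adjusted p = 1.20e-05), and at 24.4, 19.7 and 21.3 CPM with DMSO and 32, 31.6 and 31.4 CPM with AMG900 in H1792 (0.53 ± 0.08, adjusted p = 4.64e-04). It rose in both lines without overlap, and the difference between lines (-0.62 ± 0.16, adjusted p = 0.00844) was lost in 10 of 14 fits that left out 1 library (adjusted p 0.0108 to 0.0255) and after the GC correction (adjusted p = 0.0365), when the H1792 change was 0.31 (adjusted p = 0.00222). *IFI35*, a binding partner of NMI, was at 31.5, 34.0, 38.6 and 37.2 CPM with DMSO and 58.1, 67.5, 63.8 and 73.1 CPM with AMG900 in A549, and at 8.25, 6.63 and 8.27 CPM and 8.83, 9.45 and 8.41 CPM in H1792. It rose in A549 (0.81 ± 0.09, adjusted p = 7.61e-06; 0.47 after the GC correction) but was not called in H1792 (0.20 ± 0.11, adjusted p = 0.159), and this difference (-0.68 ± 0.15, adjusted p = 0.00245) was lost without H1792 DMSO replicate 3 (adjusted p = 0.0103) or H1792 AMG900 replicate 3 (adjusted p = 0.0102).

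*IFI27* was scarce, at 0.222, 0.172, 0.144 and 0.461 CPM with DMSO and 0.753, 1.14, 1.25 and 1.06 CPM with AMG900 in A549, and at 0.251, 0.420 and 0.257 CPM with DMSO and 0.659, 0.738 and 0.729 CPM with AMG900 in H1792. Its groups did not overlap in either line. It was called in A549 (1.88 ± 0.48, adjusted p = 0.00522) and just missed the threshold in H1792 (1.19 ± 0.33, adjusted p = 0.0117). The A549 call was lost without DMSO replicate 2 (adjusted p = 0.0213) or DMSO replicate 3 (adjusted p = 0.0251) or after the GC correction (adjusted p = 0.0146), and the H1792 change was called without DMSO replicate 2 (adjusted p = 0.00722).

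Of the members not yet described, *IFI44*, *PARP9* and *PARP14* were tested in both lines and called in neither, with log2 fold changes from -0.09 to 0.61 in A549 and from -0.60 to 0.10 in H1792. *PARP14* lay just short of the threshold in A549 (0.30 ± 0.09, adjusted p = 0.0102) and was called without DMSO replicate 1 (adjusted p = 0.00361), and *IFI44* was called lower in H1792 without DMSO replicate 1 (adjusted p = 0.00234). DESeq2 made both calls with all libraries (adjusted p = 0.00208 for *PARP14* in A549 and 0.00467 for *IFI44* in H1792). For the change within a line, *IFI44L* and *EPSTI1* were tested in H1792 alone and not called (-0.21 and -0.24). In A549, *IFI44L* was at 2.88 CPM in DMSO replicate 1 and between 0.0576 and 0.0860 CPM in the other DMSO libraries, against 0.597 to 1.35 CPM with AMG900. The difference of its change between lines was not called (-1.49 ± 0.82, adjusted p = 0.204, edgeR). Without A549 DMSO replicate 1 it was -3.80 and was called (adjusted p = 6.08e-05), at only 1 to 19 counts per A549 library. The chemokines *CXCL10* and *CXCL11*, which draw CXCR3-bearing lymphocytes, had at most 2 counts in any A549 library and 5 in any H1792 library, and *RSAD2* (viperin) at most 6 and 2. *CMPK2* and *RSAD2* overlap on opposite strands and whether counting used the strand is not given in the sources used here, so their few reads cannot be told apart. *XAF1* had at most 4 counts in an A549 library and 16 in an H1792 library.

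With DMSO alone, 16 of the 36 members tested were higher in H1792 (44.4%) and 12 higher in A549 (33.3%), against 34.2% and 31.9% of all 14769 genes tested, so that most genes differed between the lines whether members or not. The 16 include *IFI44L*, *DHX58* and *MX2*, which were too scarce in A549 to be tested there. With at least 10 counts required in every library, 8 of 25 members were higher in H1792 (32%) and 11 in A549 (44%). The shares of all genes were then 36.4% and 32.1%, so the lean toward H1792 depended on the filter. Per transcript length (RPKM, the CPM divided by the transcript length in kilobases), the highest mean levels in A549 with DMSO were those of *LGALS3BP* (209 ± 6.37, SD, n = 4), *UBE2L6* (58.8 ± 6.07), *IFI35* (29.9 ± 2.72), *ISG15* (16.9 ± 3.47) and *IFI6* (16.1 ± 1.40), of which the last pair overlap within their spread, with *OAS3* (13.5 ± 0.866) and *IRF1* (13.5 ± 1.28) next and level. In H1792 with DMSO they were *LGALS3BP* (423 ± 18.4, n = 3), *UBE2L6* (226 ± 7.40), *ISG15* (181 ± 43.0), *IFI6* (26.9 ± 2.96) and *IRF1* (22.9 ± 0.480), where *UBE2L6* and *ISG15*, and likewise *IFI6* and *IRF1*, lie within 2 SD of each other. The order thus shared its first member, *LGALS3BP*. *UBE2L6* was second by mean in both lines, but was not set apart from *ISG15* in H1792.

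The members with the largest baseline difference toward A549 were *OAS1* and *OAS3*. *OAS1* was 23.5-fold (log2 difference H1792 minus A549 of -4.55 ± 0.19, adjusted p = 4.85e-14), *OAS3* 12.3-fold (adjusted p = 2.67e-16) and *OASL* 2.62-fold (adjusted p = 9.59e-04) higher in A549. *IFI35* was 4.61-fold and *TRIM21* 2.56-fold higher there. In the direction of H1792, *IFI44L* was 18.4-fold higher (adjusted p = 1.63e-06), a size that depended on A549 DMSO replicate 1, since the log2 difference without it was 6.52 (adjusted p = 5.36e-12). *ISG15* was 11.2-fold (3.48 ± 0.14, adjusted p = 4.20e-14), *MX1* 8.22-fold (adjusted p = 1.13e-10), *DHX58* 7.60-fold (adjusted p = 2.83e-05), *BST2* 6.44-fold, *IFI44* 6.17-fold, *SAMD9* 5.99-fold and *UBE2L6* 3.82-fold higher. *MX2* was at 5.14 to 6.74 CPM in H1792 with DMSO, while the 4 A549 DMSO libraries held 0 or 1 count each.

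**Figure D3:**
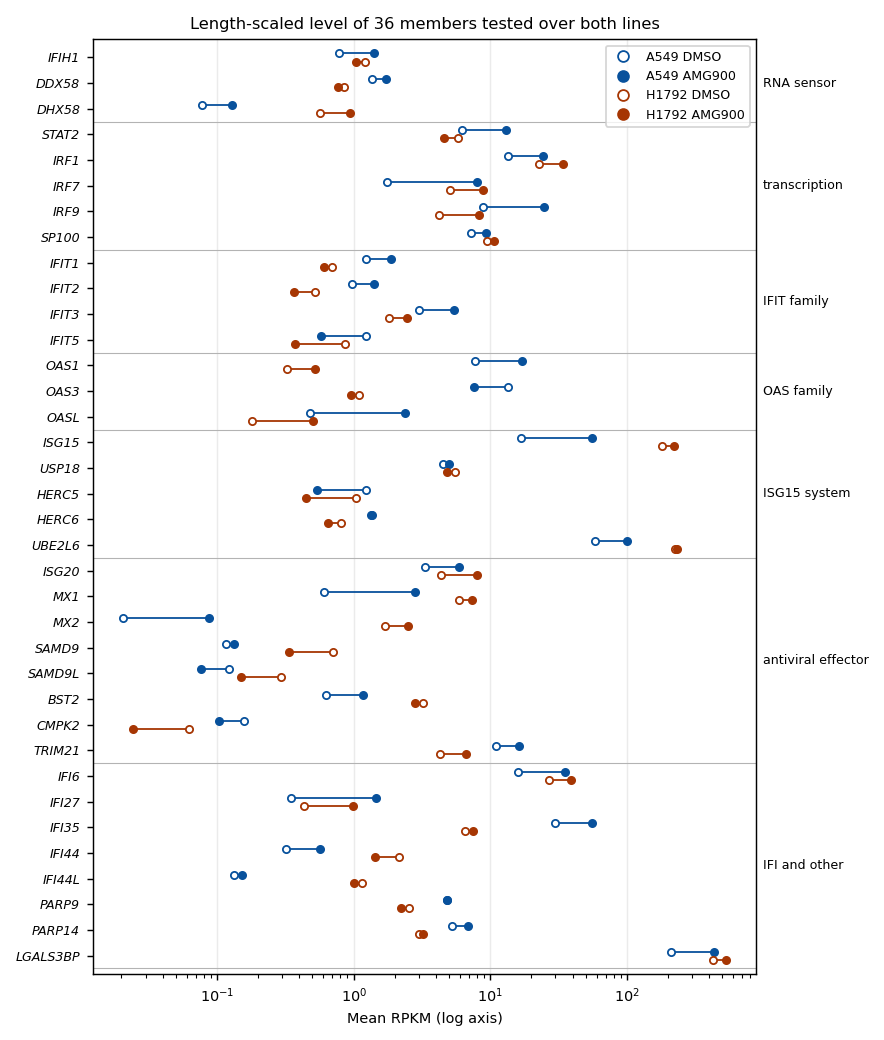
Mean length-scaled level (RPKM, log axis) of the 36 members tested over both lines, grouped by role, with DMSO (open) and AMG900 (filled) in A549 (blue) and H1792 (orange). *OAS1*, *OAS3* and *IFI35* lie far higher in A549, and *ISG15*, *MX1*, *MX2* and *UBE2L6* in H1792, with either treatment.

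The change of a member was related to the base composition of its transcript. Across members, which are not independent of one another and share the same libraries, members with GC-richer transcripts had larger log2 fold changes, with a Spearman's rho of 0.68 over 32 members in A549 and 0.68 over 37 in H1792, and 0.50 and 0.48 over all genes with a GC value. The members called higher had a median GC content of 53.7% in A549 and 52.9% in H1792, and the 5 called lower in H1792 one of 38.5%. After a correction that removes a smooth trend with GC content from each library, rho over the members was 0.29 and 0.32, with 20 members called higher and 1 lower in A549 (14.5% and 17.8% of all genes) and 11 higher and 2 lower in H1792 (15% and 22.1%).

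In A549 the correction kept 14 of the 15 members called higher, lost *IFI27* and added *IFIT1*, *IFIT2*, *IFIH1*, *DDX58*, *PARP14* and *SP100*, whose transcripts are AT-rich. In H1792 it kept 8 of 10 called higher, lost *MX1* and *LGALS3BP*, and added *IFIT3*, *PARP14* and *SP100*. Of the 5 called lower there, *STAT2* (-0.42, adjusted p = 7.80e-04) and *HERC5* (-1.07, adjusted p = 2.73e-04) were kept, and *IFIT5*, *SAMD9* and *SAMD9L* were lost. Between lines, 8 of the 9 lower changes in H1792 and the higher one of *OAS3* were kept (7.64% and 9.28% of all genes), and the difference in *IFI6* was lost. Whether the GC trend arose in the cells or in library preparation was not tested.

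**Figure D4:**
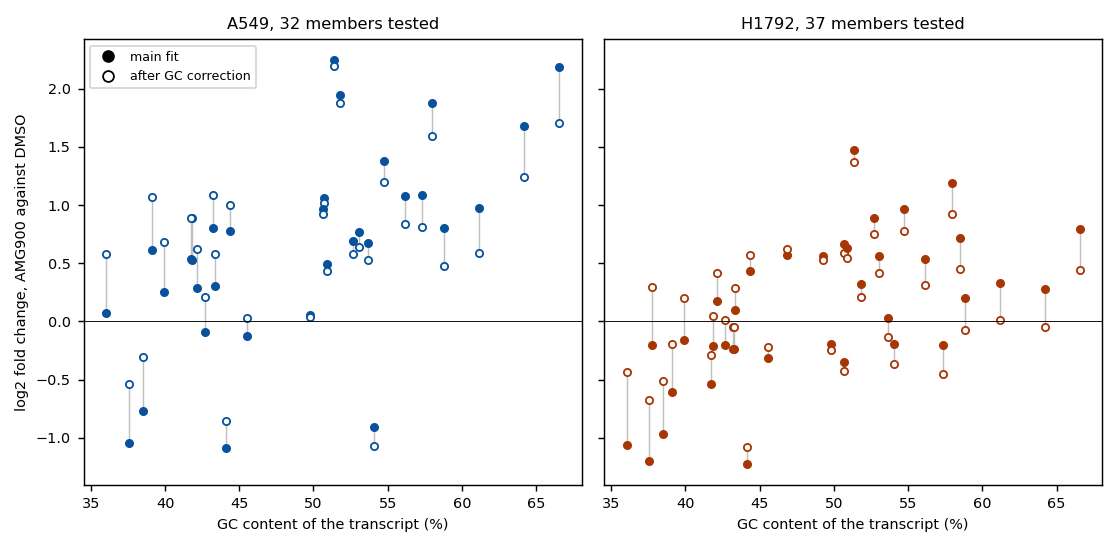
Log2 fold change with AMG900 of each member tested against the GC content of its transcript (%), in A549 (left) and H1792 (right). Filled points are the values as first fitted and open points, joined by a line, those after the GC correction, which raises the AT-rich members and lowers the GC-rich ones while *HERC5* (44.1% GC) stays low in both lines.

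Most interferon genes had few counts. Of 24 interferon gene names searched, 21 were listed, of which 18 had at most 7 counts in any library, and *IFNB1*, the main interferon of non-immune cells, had 0 counts in all 8 A549 libraries and in 5 of 6 H1792 libraries, with 1 count in the other, where a count of 0 allows a level of up to 0.158 to 0.706 CPM of the total in an A549 library (3 counts, for counting error only). The type III genes *IFNL2* and *IFNL3*, near-identical neighbours between which reads may be divided, had the most counts, with mean levels of *IFNL2* from 0.952 CPM (A549 with DMSO) to 2.14 CPM (H1792 with AMG900). *IFNL2* had 9, 9, 12 and 3 counts with DMSO and 9, 60, 12 and 18 with AMG900 in A549, and 118, 54 and 52 with DMSO and 251, 82 and 80 with AMG900 in H1792. *IFNL3* had 1 to 8 counts with DMSO and 4, 95, 0 and 4 with AMG900 in A549, and 14, 26 and 11 with DMSO and 227, 13 and 14 with AMG900 in H1792. In each line 1 AMG900 library, A549 replicate 2 and H1792 replicate 1, was thus far above the others, and *IFNL2* was not called (adjusted p = 0.208 in A549 and 0.144 in H1792), nor was *IFNL3* in H1792 (adjusted p = 0.101), while it was not tested in A549. *IFNG* had 85 counts in H1792 DMSO replicate 2 and at most 4 in any other library.

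Of the 32 members tested in A549, AMG900 replicate 2 was the highest of the 4 AMG900 libraries for 4 and the lowest for 6. Of the 37 tested in H1792, AMG900 replicate 1 was the highest of 3 for 11 and the lowest for 15. Without A549 AMG900 replicate 2, 16 members were called higher and 1 lower in A549 (14.3% and 13.9% of all genes), and without H1792 AMG900 replicate 1, 8 were called higher and 3 lower in H1792 (9.13% and 12.2%).

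For the genes that receive and transmit the interferon signal, counts of calls were set beside those of all genes. Of 21 names of receptors, kinases, transducers and their inhibitors searched, 20 were listed. Among 19 tested in A549, 7 were called higher and 2 lower (17.2% and 17.8% of all genes). Among 20 tested in H1792, 2 were called higher and 5 lower (16.2% and 18.8%). After the GC correction these were 6 and 4 in A549 (14.5% and 17.8% of all genes) and 1 and 7 in H1792 (15% and 22.1%). For 5 of 20 the change was lower in H1792 than in A549, with 0 higher (9.17% and 5.37% of all genes, edgeR), and for 4 and 1 after the GC correction (7.64% and 9.28%). The receptor subunits *IFNAR2* (0.56 ± 0.13, adjusted p = 0.00325), *IL10RB* (0.66 ± 0.12, adjusted p = 3.32e-04) and *IFNGR1* (0.81 ± 0.20, adjusted p = 0.00330) rose in A549 and were not called in H1792. *JAK1*, the kinase shared by all 3 receptor types, fell in both lines (-0.38 ± 0.08 in A549 and -0.69 ± 0.06 in H1792), as did *PTPN11*, which encodes the phosphatase SHP2 (-0.90 and -1.06, and -0.55 and -0.81 after the GC correction). *SOCS3*, a feedback inhibitor of JAK kinases, fell in H1792 (-0.84 ± 0.05) and was called lower in A549 only after the GC correction (-0.46, from -0.09). *IRF5* was called higher in both lines (0.74 and 0.63), and after the GC correction it was at 0.44 in A549 and at 0.37 in H1792, where the call was lost (adjusted p = 0.0115), as it was for *PTPN6* (adjusted p = 0.0132).

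**Figure D5:**
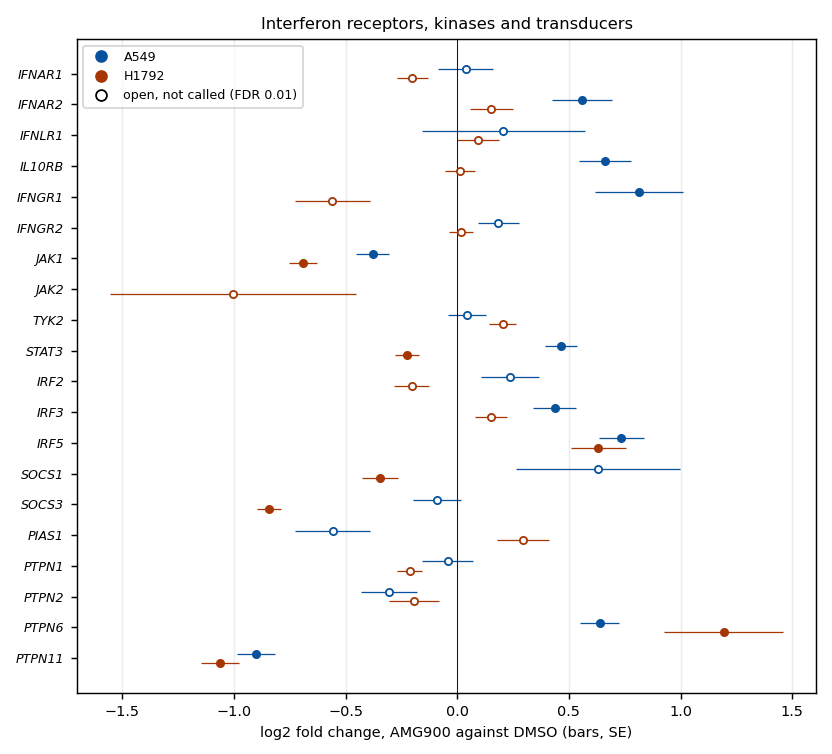
Log2 fold change with AMG900 (with SE) of the interferon receptors, kinases, transducers and inhibitors, in A549 (blue) and H1792 (orange), filled where called. *JAK1* and *PTPN11* lie below 0 and *IRF5* and *PTPN6* above 0 in both lines, while *STAT3* lies on opposite sides.

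A second list of 48 interferon-stimulated genes outside the 42 was examined in the same way. In A549, 18 of 40 tested were called higher and 1 lower (17.2% and 17.8% of all genes), with a median log2 fold change of 0.33. In H1792, 8 of 44 were higher and 6 lower, shares near those of all genes (16.2% and 18.8%), with a median of 0.10. After the GC correction these were 21 and 4 in A549 (14.5% and 17.8% of all genes) and 13 and 10 in H1792 (15% and 22.1%). The difference between lines was called for 11 of 44, all with the lower change in H1792 (9.17% of all genes), and for 10 after the GC correction (7.64%). *PML*, the scaffold of nuclear bodies, rose by 1.10 ± 0.08 on the log2 scale in A549 (adjusted p = 4.91e-08) and had a log2 fold change of 0.17 ± 0.05 in H1792 (not called, adjusted p = 0.0139), and *IFITM1*, a membrane protein that blocks viral entry, rose in A549 (1.25 ± 0.30, adjusted p = 0.00351) and fell in H1792 (-0.74 ± 0.15, adjusted p = 0.00198). *LAP3*, an aminopeptidase, fell in both lines (-0.63 and -0.62).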

How the data were processed

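RNA was sequenced from A549 and H1792 cells. The authors deposited 1 table of raw read counts per gene for each line, and the submitters' processing notes name STAR, HTSeq and the builds hg19 and GRCh37, with versions and strand setting not given in the sources used here. Date-like entries in place of gene symbols (28 in the H1792 table, at most 0.117% of a library) were left out. Members and gene lists were chosen with earlier results of these data known. Some genes of the lists outside the 42 members are not reported here and were left out of the counts and medians of those lists.

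Within each line, AMG900 was compared with DMSO by the quasi-likelihood test of edgeR 4.0.16 in R 4.3.3 (TMM scaling, filterByExpr, Benjamini-Hochberg adjustment over all genes tested, threshold 0.01). The difference between lines and the baseline came from 1 fit of all 14 libraries. CPM use TMM factors over the 14 libraries, and lengths and GC content those of the canonical transcript in GENCODE 44 mapped to GRCh37, which 96.7% and 95.3% of the genes tested had. Scripts were tested on simulated data. Alternatives were DESeq2 1.42.0, its size factors, total counts, no filter, at least 10 counts in every library, a GC correction (a spline with 5 degrees of freedom per library), the replicate number as a block, a threshold of 0.05 and each library left out.

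Values in every library are given for members called with a log2 fold change of at least 1 in size, called between lines or called in both lines, at most 16 by size. With 3 or 4 libraries per group, p-values set the difference of groups against the spread between these libraries. This spread was estimated with information shared across genes, and over all 14 libraries for the difference between lines and the baseline.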

Additional observations from a re-analysis of the deposited data

Results flagged for a closer look

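Among 64 groups of 4 A549 libraries, 7 held a library far from the other 3 by Dixon's test, where chance gives about 1 in 20. With DMSO these were *OASL* in replicate 2 (0.688 CPM, low), *USP18* in replicate 3 (9.95 CPM, high), *BST2* in replicate 1 (1.33 CPM, high) and *PARP9* in replicate 1 (12.9 CPM, low). With AMG900 they were *IFIT5* in replicate 4 (1.46 CPM, low), *DDX58* in replicate 4 (7.3 CPM, low) and *IRF9* in replicate 2 (45.3 CPM, high).

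The change with AMG900 differed between lines, tested as an interaction in edgeR, for 10 members. The log2 difference, H1792 minus A549, was -1.65 for *MX1*, -1.49 for *ISG15*, -1.48 for *IRF7*, -1.39 for *STAT2*, -1.12 for *IFIH1*, -0.73 for *LGALS3BP*, -0.72 for *UBE2L6*, -0.68 for *IFI35* and -0.62 for *IFI6*, and 0.64 for *OAS3*. Line, medium and sequencing depth cannot be told apart in these differences.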

How the results depend on the processing

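Of 141 single-gene results recomputed under 8 other settings and with each library left out, 0 reversed a called direction. With DESeq2, 19 members were called higher and 1 lower in A549 (19.4% and 20.1% of all genes), and 11 and 6 in H1792 (18.3% and 21.6%). At a threshold of 0.05, 3 members were called lower in A549 (25.2% of all genes). In H1792, 2 members were called lower with the GC correction (22.1% of all genes) and 2 with the replicate block and the GC correction together (19.4%). With at least 10 counts in every library, 8 of 25 members were called higher at baseline (32%, against 36.4% of all genes) and 11 lower (44%, against 32.1%). This filter left out members scarce in A549, such as *MX2* and *IFI44L*, which the main fit called higher in H1792. The cause of the changes in these counts was not tested. Leaving out 1 library gave 14 to 18 members higher and 1 lower in A549 (13.8% to 21.4% and 13.9% to 22.1% of all genes). In H1792 it gave 8 to 12 higher and 2 to 6 lower (9.13% to 20.1% and 12.2% to 24.1%). Between lines it gave 0 to 1 higher and 6 to 12 lower (4.02% to 7.68% and 6.44% to 12.9%). At baseline it gave 14 to 16 higher and 10 to 13 lower (31.7% to 35.6% and 27.4% to 33%). Same-numbered DMSO and AMG900 libraries did not deviate together (correlations of -0.0604 to 0.0425). With the replicate block 14 members were higher and 1 lower in A549 (14.6% and 15.1% of all genes), and 9 and 5 in H1792 (14.5% and 17.4%). The counts were 1 and 7 between lines (4.09% and 6.66%), and 14 and 12 at baseline (33.3% and 30.3%). Members at a few counts, such as *CXCL10* and *RSAD2*, could not be tested at this depth.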

Other observations

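In the second list of interferon-stimulated genes, guanylate-binding proteins were among those called, the large GTPases that attack membranes around intracellular pathogens. *GBP2* rose in both lines, from a mean of 9.98 to 19.9 CPM in A549 (adjusted p = 6.13e-05, edgeR) and from 80.6 to 102 CPM in H1792 (adjusted p = 0.00214). *GBP5* rose in H1792 from 2.68 to 5.21 CPM (adjusted p = 3.41e-04) and had at most 9 counts in any A549 library. *GBP1* was called in neither line (-0.33 and -0.18 on the log2 scale). *PNPT1*, a mitochondrial RNA-degrading enzyme, fell in H1792 from 13.9 to 7.12 CPM (adjusted p = 2.73e-05) and was not called in A549 (adjusted p = 0.357), a called difference (adjusted p = 0.00145).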
